A study of Homo sapiens with 6 samples.

Results

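The BCL2 family decides whether a cell permeabilises its mitochondrial outer membrane and dies by apoptosis. Pro-survival proteins such as MCL1, BCL-XL (gene BCL2L1) and BCL2 hold the pore-forming effectors BAK and BAX in check. BH3-only proteins, so called because they share only the short BH3 helix with the rest of the family, respond to stress by occupying the groove of the pro-survival proteins or by activating the effectors. Hepatocytes and liver cancer cells are known to depend mainly on MCL1 and BCL-XL.

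A list of 10 genes of this family was taken by symbol, of 25071 genes in the count table. It holds 3 pro-survival genes (MCL1, BCL2L1, BCL2), 6 BH3-only genes (BCL2L11, which encodes BIM, and BAD, BID, BIK, BMF and HRK) and 1 effector gene (BAK1). Of these, 9 were found in the table, and all 9 passed the filter on low counts. HRK had no row there, and its expression was not analysed here.

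The cells were PLC/PRF/5, a human hepatoma line. Of 6 libraries, 3 came from cells transfected with a plasmid that overexpresses ARD1 and 3 from cells transfected with the control vector, all harvested 48 hours later. The gene for ARD1 is NAA10, and its protein is the enzyme of NatA, which acetylates the N termini of nascent proteins. The title of the series concerns escape from ferroptosis, so the apoptotic genes described here lie beside its main question. The series gives a single line, transient transfection and pooled cells, and the labels name neither the promoter of the plasmid nor a selection for transfected cells.

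Library totals ran from 21857327 to 25011357 counts, at which 3 counts are worth 0.120 to 0.137 CPM, the count scaled to a common library size. NAA10 was at 350.0 ± 53.2 CPM in ARD1 libraries and 34.6 ± 2.16 CPM in control libraries (SD, n = 3 each; log2 fold change 3.34), higher in the libraries labelled as ARD1. Among the controls, replicate 1 was unlike both others (chi-square per df 17.6 and 20.5), whereas pairs of ARD1 libraries gave 2.504 to 4.398, so values without it are given where they matter. Of the 10 hepatocyte markers 8 were tested, with 3 higher (SERPINA1 at 2 on the log2 scale, APOB at 0.33 and HNF4A at 0.25) and 5 lower. Albumin was at 36.3 ± 3.89 CPM in ARD1 libraries and 315 ± 6.37 CPM in control libraries, while TTR, the gene of transthyretin, had 0 counts in all ARD1 libraries and 2, 5 and 2 counts in control libraries. The summed level of the list, to which ALB, TF and FGB gave most in control libraries, was 234 to 259 CPM in ARD1 libraries and 777 to 808 CPM in control libraries. Summed markers of other cell types were at 90.2 to 103 CPM in ARD1 and 70.0 to 82.7 CPM in control libraries for endothelium, 18.2 to 20.7 and 78.1 to 98.8 CPM for fibroblasts, and 5.52 to 6.26 and 14.5 to 15.6 CPM for immune cells, in the same order of groups. Of the 4 endothelial markers tested, VWF (5.29), KDR (2.05) and PECAM1 (0.82) were higher, and CDH5 was lower. CDH5 had 1, 0 and 4 counts in ARD1 libraries and 777, 642 and 747 counts in control libraries, so it passed the filter on low counts through the control libraries alone. VWF had 39, 28 and 38 counts in ARD1 libraries and 0, 0 and 2 in control libraries, so it passed the filter on low counts through the ARD1 libraries alone. TEK, too low to be tested, had 4, 4 and 4 counts in ARD1 and 10, 17 and 11 in control libraries. Of the 5 fibroblast markers tested, COL3A1 (-4.80) and LUM (-2.015) were lower and gave most of the sum in control libraries. COL1A1 was higher (1.55, at 1.67 CPM in ARD1 and 0.565 CPM in control libraries), and DCN (0.66) and PDGFRB (0.34) did not pass. Both immune markers tested were lower, ITGAM (-1.20), which gave most of that sum, and PTPRC (-4.905). PTPRC had 2, 2 and 0 counts in ARD1 and 25, 36 and 53 counts in control libraries. It too passed the filter through the control libraries alone, the group where it is higher. The part of these shifts in the results on the family was not tested, and in bulk libraries fewer cells of a kind and less RNA per cell cannot be told apart. All libraries of a group share the plasmid, so a difference of culture or batch between the groups cannot be told apart from it. Here and below, words such as rose and fell give the direction between the groups only.

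The feature that joins the family is the BH3 helix, whose core runs from a leucine over 3 residues to a small residue (glycine, alanine or serine) and an aspartate. The stretches of coding sequence below are shown because they carry this core in the 5 members whose change held under every alternative tried, and in BAK1, the effector that such helices act on. They are the reference sequence of GENCODE 29 transcripts (GRCh38), 5′ to 3′ on the coding strand, with the 6 codons of the core in capitals.
MCL1: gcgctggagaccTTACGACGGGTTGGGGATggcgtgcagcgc
BCL2L1: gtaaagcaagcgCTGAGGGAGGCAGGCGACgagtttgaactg
BCL2L11: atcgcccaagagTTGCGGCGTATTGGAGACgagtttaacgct
BAD: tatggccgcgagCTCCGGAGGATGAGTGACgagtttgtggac
BID: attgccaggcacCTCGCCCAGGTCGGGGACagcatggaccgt
BAK1: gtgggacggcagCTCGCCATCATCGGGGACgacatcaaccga

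These stretches lie in exon 1 of 3 of MCL1 (chr1:150578865-150578906, minus strand), exon 2 of 3 of BCL2L1 (chr20:31721922-31721963, minus), exon 4 of 5 of BCL2L11 (chr2:111150091-111150132, plus), exon 2 of 3 of BAD (chr11:64271622-64271663, minus), exon 4 of 6 of BID (chr22:17739415-17739456, minus) and exon 4 of 6 of BAK1 (chr6:33575387-33575428, minus). Over 42 bases, pairs of the 9 measured members shared between 13 bases (BAD and MCL1) and 28 bases (BAK1 and BIK). The core as spelled out occurs in coding sequences of 34.8% of 19670 genes, and is therefore no mark of the family by itself. In BID it occurred at 2 places, and the one followed after 1 residue by a bulky hydrophobic residue is shown, a choice made after the matches were seen.

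Of the 9 members tested, 7 differed between the groups in edgeR's quasi-likelihood test at an adjusted p under 0.05, with 4 higher and 3 lower in ARD1 libraries. Of all 15816 genes tested 64.6% passed, 32.4% as higher and 32.2% as lower, so the number of members that passed lies near the background. The ARD1 and control libraries did not overlap in 6 of the 9 members, against 69.6% of all genes. The median log2 fold change was 0.13 over the 9 members and 0.03 over all tested genes. What follows is therefore about which members moved, and how far, rather than about how many. BCL2 passed the filter on low counts through the ARD1 libraries alone, and BIK through all 3 ARD1 and 2 control libraries.

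**Figure D1:**
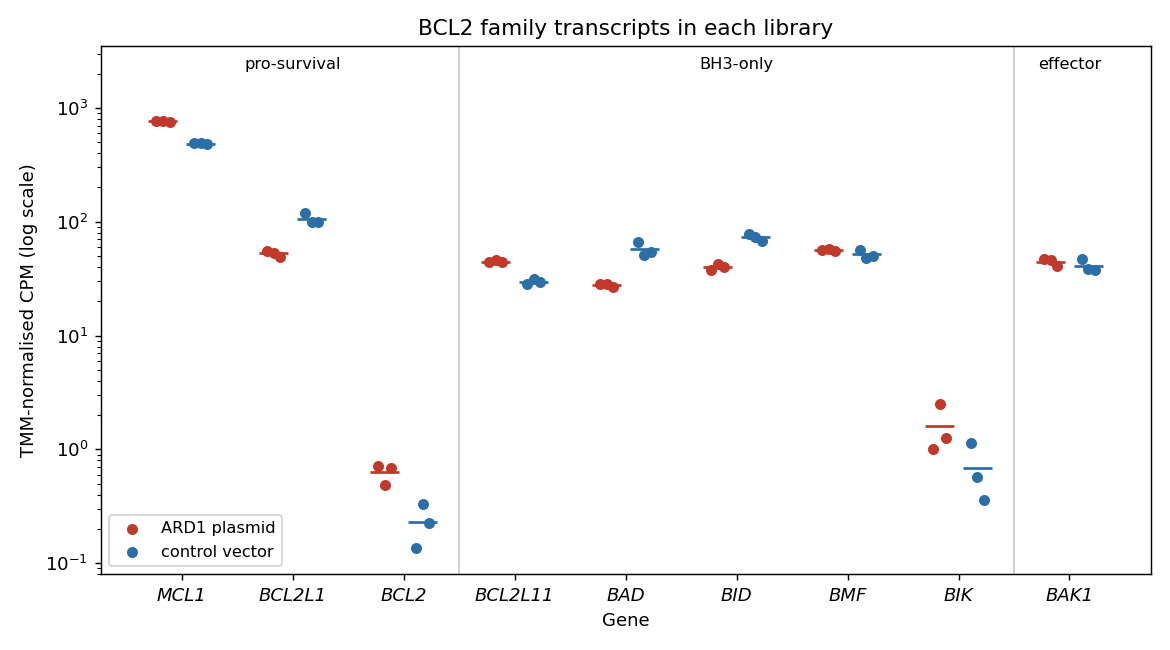
TMM-normalised CPM (log axis) of the 9 measured members in each library, with ARD1 plasmid libraries in red and control vector libraries in blue; points are libraries and bars their means. MCL1 lies far above the other members in both groups, and the groups are apart for MCL1, BCL2L1, BCL2, BCL2L11, BAD and BID.

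Among the pro-survival genes, MCL1 rose and BCL2L1 fell. MCL1 (ENSG00000143384, chr1:150574551-150579738, minus strand), whose short-lived protein binds BIM, NOXA and BAK, had 766, 763 and 758 CPM in ARD1 libraries, against 487, 489.5 and 482 CPM in control libraries. The 3 ARD1 values lie within a few CPM of each other and all above the controls. The difference was 1.57-fold (log2 fold change 0.65, SE 0.0627, edgeR adjusted p = 4.19e-07).

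BCL2L1 (ENSG00000171552, chr20:31664452-31723989, minus strand), the gene of BCL-XL, had 55.4, 53.6 and 48.7 CPM in ARD1 libraries, against 119, 99.2 and 99.4 CPM in control libraries. Control replicate 1 was the highest, and the lowest control still exceeded every ARD1 library. The log2 fold change was -1.01 (SE 0.0873, edgeR adjusted p = 1.29e-07), and -0.93 without control replicate 1. Exons of ABALON lie opposite 43.0% of the BCL2L1 exon bases, and since the strand setting of the counting is not given, reads of the 2 genes cannot be told apart there. Gene counts also do not separate the long and short splice forms of BCL2L1 or MCL1, whose short forms are known to lack pro-survival activity.

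BCL2 itself (ENSG00000171791, chr18:63123346-63320128, minus strand), the founding member of the family, was barely present, with 17, 13 and 17 counts in ARD1 libraries and 3, 7 and 5 counts in control libraries. The lowest ARD1 library had more counts than the highest control. Over the summed counts the ratio was 2.71, with an exact conditional 95% interval of 1.49 to 5.22 that covers counting error only. The edgeR log2 fold change was 1.42 (SE 0.457, adjusted p = 0.0133). BCL2 entered this test through the ARD1 libraries alone, the group where it is higher, so its call is no independent support for a rise. It did not pass without control replicate 1 (1.15, adjusted p = 0.0661) or without ARD1 replicate 1 (1.33, adjusted p = 0.0515). The adjusted p ranged from 0.00497 to 0.0661 across its alternatives.

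Of the 5 BH3-only genes measured, 2 rose (BCL2L11 and BIK), 2 fell (BAD and BID) and BMF did not pass the test. BCL2L11 (ENSG00000153094, chr2:111119378-111168447, plus strand) encodes BIM, which binds all pro-survival proteins and can activate BAX and BAK directly. It had 44.0, 45.7 and 44.4 CPM in ARD1 libraries, against 28.4, 31.1 and 29.8 CPM in control libraries, with no overlap. The difference was 1.5-fold (log2 fold change 0.59, SE 0.0801, edgeR adjusted p = 1.47e-05). MIR4435-2HG, whose exons lie opposite 10.9% of the BCL2L11 exon bases, was also higher, at 24.6 ± 1.79 CPM in ARD1 and 17.7 ± 2.16 CPM in control libraries (SD, n = 3 each; log2 fold change 0.48, adjusted p = 0.00128), and its share in the BCL2L11 counts was not tested.

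BAD (ENSG00000002330, chr11:64269830-64284704, minus strand), whose protein binds BCL-XL and BCL2 and is held inactive by AKT and 14-3-3 proteins, had 28.5, 28.5 and 26.7 CPM in ARD1 libraries, against 66.0, 51.2 and 54.3 CPM in control libraries. Every ARD1 library was below every control. The log2 fold change was -1.03 (SE 0.0981, edgeR adjusted p = 3.38e-07). With GC and length trends between the libraries removed it was -0.52 (adjusted p = 5.83e-07, range over its alternatives 1.31e-19 to 1.08e-05), so the size of the fall depends on that setting. At 66.3% GC its transcript was the most GC-rich of the members. GPR137, with exons opposite 23.7% of the BAD exon bases, went the other way (log2 fold change 0.22, SE 0.0793, adjusted p = 0.0265).

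BID (ENSG00000015475, chr22:17734138-17774770, minus strand), which caspase-8 cleaves to carry death receptor signals to mitochondria, had 38.0, 42.3 and 39.7 CPM in ARD1 libraries, against 78.0, 73.2 and 67.3 CPM in control libraries. The groups were far apart, with the highest ARD1 library at 42.3 and the lowest control at 67.3 CPM. The log2 fold change was -0.86 (SE 0.0818, edgeR adjusted p = 3.28e-07), and -0.87 with GC and length trends removed.

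BMF (ENSG00000104081, chr15:40087890-40108892, minus strand), a BH3-only protein tethered to the actin cytoskeleton, had 56.9, 57.4 and 55.1 CPM in ARD1 libraries, against 56.3, 48.1 and 50.2 CPM in control libraries. Control replicate 1 lay among the ARD1 libraries and the other controls below them. The test gave no call (log2 fold change 0.13, SE 0.0801, edgeR adjusted p = 0.165). It passed as higher without control replicate 1 (0.19, adjusted p = 0.00603), under GC and length offsets (0.22) and with library totals alone (0.40), over a range of adjusted p of 0.000335 to 0.620.

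BIK (ENSG00000100290, chr22:43110748-43129712, plus strand), a BH3-only protein of the endoplasmic reticulum, was near the limit of detection, with 24, 67 and 31 counts in ARD1 libraries and 25, 12 and 8 counts in control libraries. The groups overlapped, and ARD1 replicate 2 held more counts than the other ARD1 libraries together. The log2 fold change of 1.21 (SE 0.433, edgeR adjusted p = 0.0236) came to 0.71 without that library (adjusted p = 0.194). It also did not pass without control replicate 2 (1.06, adjusted p = 0.0789) or control replicate 3 (0.86, adjusted p = 0.106), with a range over its alternatives of 0.000796 to 0.194.

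The effector gene BAK1 (ENSG00000030110, chr6:33572547-33580293, minus strand) had 46.7, 45.7 and 40.6 CPM in ARD1 libraries, against 46.9, 38.1 and 37.9 CPM in control libraries. As for BMF, control replicate 1 was the control that overlapped the ARD1 libraries. For BAK1 too the test gave no call (log2 fold change 0.11, SE 0.0975, edgeR adjusted p = 0.326). It passed as higher without control replicate 1 (0.21, adjusted p = 0.00812), under GC and length offsets (0.40) and with library totals alone (0.38), over a range of adjusted p of 2e-05 to 0.844. The genome holds 2 annotated BAK1 pseudogenes, and its count is uncertain to the extent that reads were shared with them.

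Without control replicate 1, 8 members passed, 5 higher and 3 lower, and with library totals alone, as with GC and length trends removed, 9 passed, 6 higher and 3 lower. The share of all genes that passed also rose in these fits, to 67.28%, 70.13% and 68.91% in the same order, from 64.64%. Library totals alone moved the median of all genes to 0.30 on the log2 scale, against 0.03 with TMM. Against that shifted median MCL1 at 0.91 and BCL2L11 at 0.85 were still higher, and BCL2L1 at -0.74, BAD at -0.77 and BID at -0.60 still lower, while BMF at 0.40 and BAK1 at 0.38 lay closest to it. The log2 fold changes of MCL1, BCL2L1, BCL2L11, BAD and BID kept their sign and passed the test in each of the 16 alternative fits.

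**Figure D2:**
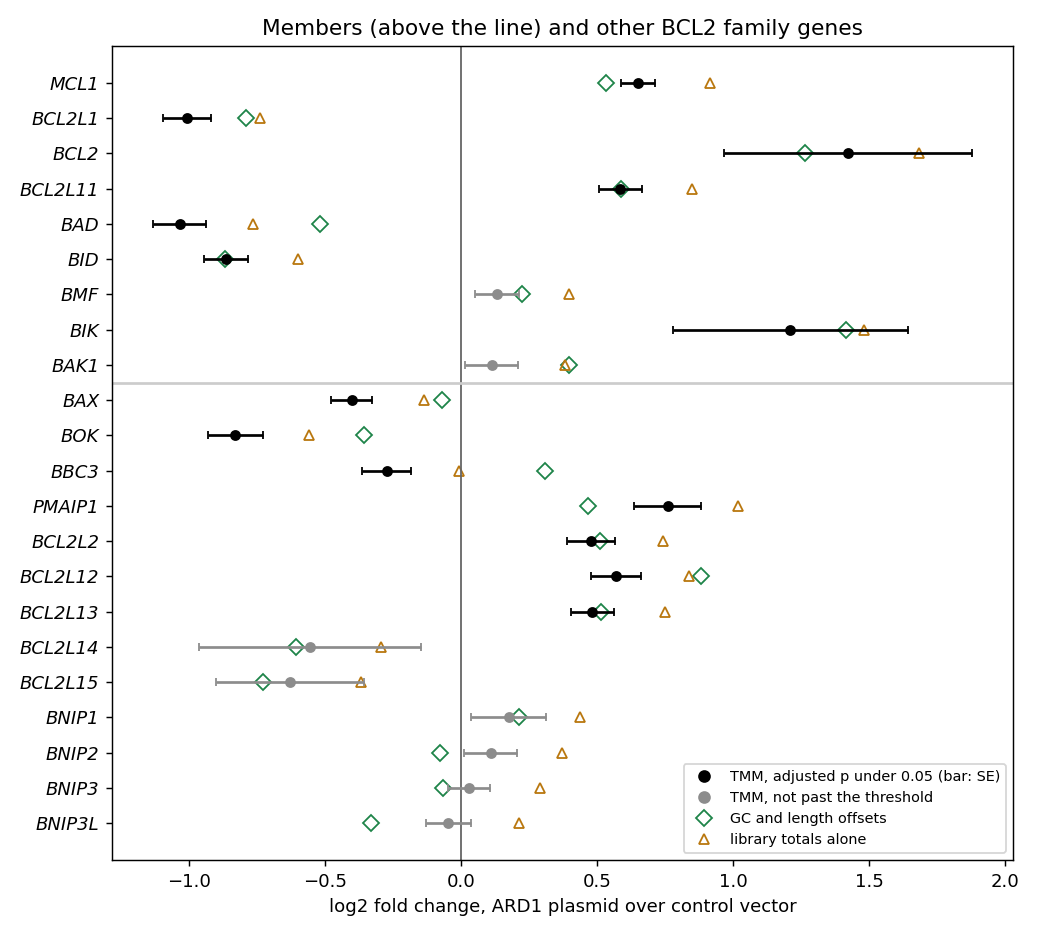
Log2 fold change of the 9 members and 13 other BCL2 family genes, ARD1 plasmid over control vector; circles are the TMM fit with SE bars (black where the adjusted p was under 0.05), diamonds the fit with GC and length offsets and triangles the fit on library totals alone. MCL1, BCL2L1, BCL2L11, BAD and BID keep their side of zero under all 3, and BBC3 changes sides with GC and length offsets.

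Levels of different members were compared per length, as RPKM (CPM per kilobase of the representative transcript). MCL1 was the most abundant member in both groups, at 194 ± 0.997 RPKM in ARD1 libraries and 124 ± 0.945 RPKM in control libraries (SD, n = 3 each). In ARD1 libraries it was followed by BCL2L11 (29.4 ± 0.577 RPKM), BAD (24.1 ± 0.894), BAK1 (20.8 ± 1.52), BCL2L1 (20.1 ± 1.32), BID (16.0 ± 0.866), BMF (12.04 ± 0.258), BIK (1.67 ± 0.849) and BCL2 (0.0842 ± 0.0164 RPKM). BAK1 and BCL2L1 overlapped and cannot be ordered.

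In control libraries the order after MCL1 was BAD (49.4 ± 6.75 RPKM), BCL2L1 (40.5 ± 4.28), BID (29.2 ± 2.15), BCL2L11 (19.6 ± 0.886), BAK1 (19.2 ± 2.41), BMF (11 ± 0.911), BIK (0.723 ± 0.422) and BCL2 (0.0310 ± 0.0132 RPKM). BAD overlapped with BCL2L1 there, and BCL2L11 with BAK1. BCL2L11 thus lay above BAD, BCL2L1 and BID in every ARD1 library and below them in every control library. The order rests on the length used: with the union of its exons, 6658 bases in place of 1522, its level was 6.71 RPKM in ARD1 and 4.47 RPKM in control libraries, rank 7 in both. With union lengths BAK1 also came above BAD, and BMF above BID, in ARD1 libraries. In control libraries BAK1 then came above BID by its mean, with overlap between them.

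Ratios between members show which pairs moved together. The log2 ratio of BCL2L11 to MCL1 (both in RPKM) was -2.75, -2.69 and -2.72 in ARD1 libraries and -2.73, -2.61 and -2.65 in control libraries, and the groups overlapped. The ratio of BCL2L11 to BCL2L1 was 0.45, 0.55 and 0.64 in ARD1 libraries and -1.28, -0.89 and -0.96 in control libraries, a mean difference of 1.59 with no overlap. The ratio of MCL1 to BCL2L1 was 9.64 on the linear scale in ARD1 libraries and 3.06 in control libraries, as geometric means. BAK1 to MCL1 stood at -3.16, -3.18 and -3.34 on the log2 scale in ARD1 libraries and -2.49, -2.80 and -2.79 in control libraries. BAK1 was thus lower relative to MCL1 in every ARD1 library than in any control library. These ratios follow from the values above, and no test was made of them. The lengths and the library scaling cancel in the change of a ratio between groups, but offsets fitted per gene do not: with GC and length trends removed, the log2 fold changes were 0.53 for MCL1, 0.59 for BCL2L11 and 0.40 for BAK1.

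By role, pro-survival members held 67.5%, 66.6% and 67.8% of the summed RPKM of the 9 members in ARD1 libraries, against 54.4%, 57.0% and 56.8% in control libraries. BH3-only members held 25.6%, 26.8% and 26.1% in ARD1 libraries, against 38.6%, 36.8% and 36.9% in control libraries. BAK1 held 6.52 ± 0.380% in ARD1 libraries and 6.53 ± 0.457% in control libraries (SD, n = 3 each). These shares rest on MCL1. Among the other 8 members the pro-survival share was 16.3 ± 0.662% in ARD1 libraries and 23.9 ± 0.305% in control libraries, and the BH3-only share 67.0 ± 1.39% in ARD1 and 64.8 ± 0.666% in control libraries, both the opposite direction. The BAK1 share was then 16.7 ± 0.743% in ARD1 libraries and 11.3 ± 0.363% in control libraries.

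**Figure D3:**
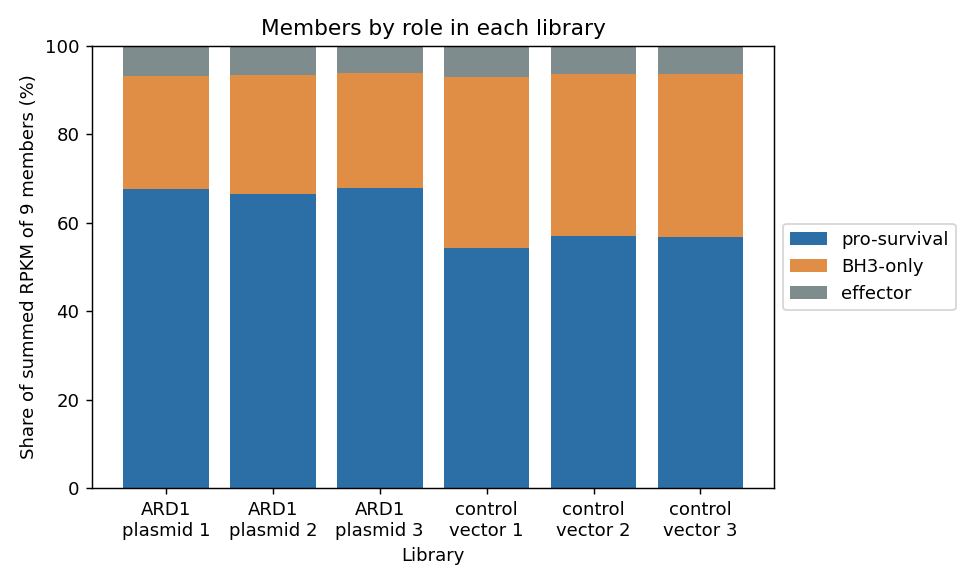
Share of the summed RPKM of the 9 measured members held by each role, 1 bar per library, ARD1 plasmid libraries left of control vector libraries. The pro-survival share (blue) is 66.6% to 67.8% in ARD1 libraries and 54.4% to 57.0% in control libraries.

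The 9 measured members lie on 8 chromosomes, with BID and BIK both on chromosome 22. Transcript GC content was 45.1% for MCL1, 45.6% for BCL2, 47.9% for BCL2L11 and 56.0% for BIK, which were higher in ARD1 libraries, and 56.9% for BCL2L1, 49.7% for BID and 66.3% for BAD, which were lower. BMF was at 54.8% and BAK1 at 58.8%.

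The promoter of BCL2L11 is shown because forkhead factors of the FOXO class are known regulators of BIM. The RefSeq table (GRCh38.p14) held 15 start sites for 8 of the 10 members, all but MCL1 and BIK, and the 250 bases before each were searched on both strands for the forkhead core GTAAACA, the C/EBP-ATF type words TGATGCAA and TTGCATCA, the SP type word GGGCGG, and the E2F type words TTTCCCGC and TTTGGCGC. Of these 8 genes, BCL2L11 alone held a forkhead core, which 2.98% of all 35116 such windows hold. None of the 15 windows held a C/EBP-ATF word (0.772% of all windows) or an E2F word (1.93%), and SP words (42.6% of all windows) stood in windows of BAD, BAK1, BCL2L11, BID, BMF and HRK. Below are the bases chr2:111120664-111120913 on the plus strand, 5′ to 3′, with the forkhead core and then 3 SP words in capitals.
BCL2L11: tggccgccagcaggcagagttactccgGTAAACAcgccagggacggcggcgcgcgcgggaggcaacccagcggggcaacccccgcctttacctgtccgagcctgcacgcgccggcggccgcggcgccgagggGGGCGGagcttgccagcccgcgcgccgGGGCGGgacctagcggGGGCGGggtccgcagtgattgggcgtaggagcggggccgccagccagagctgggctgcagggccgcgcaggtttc

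A word match describes the letters of the window and says nothing of binding. Among transcription factor genes known to act on the family, FOXO3 rose to 123 ± 2.30 CPM in ARD1 libraries, against 93.2 ± 5.24 CPM in control libraries (log2 fold change 0.40, SE 0.0704), while FOXO4 fell (-0.32). FOXO1 did not pass (-0.12, edgeR adjusted p = 0.442). DDIT3, which encodes CHOP, a stress factor known to raise BIM and lower BCL2, was at 94.1 ± 2.62 CPM in ARD1 and 16.7 ± 1.26 CPM in control libraries (2.49, SE 0.0839). ATF5 (1.31) and CEBPB (0.86) rose too, and E2F1 (-1.64) and HIF1A (-0.52) fell. In this list 12 of 17 tested genes passed, 5 higher and 7 lower, and the median was -0.11. This share of 70.59% lies near the 64.6% of all tested genes. FOXO4 did not pass with library totals alone (-0.05) or with GC and length trends removed (-0.15). The DDIT3 count is uncertain, since exons of other genes lie on the opposite strand over 31.6% of its exon bases and on the same strand over 8.03%.

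The other BCL2 family genes also moved in both directions. All 15 were in the table and 13 were tested, with 4 higher, 3 lower and a median of 0.03. Of those tested 53.85% passed, against 64.6% of all genes. PMAIP1, the gene of the MCL1-binding protein NOXA, was at 45.5 ± 2.20 CPM in ARD1 libraries and 26.9 ± 5.59 CPM in control libraries (log2 fold change 0.76, SE 0.123), and BCL2L2, the gene of pro-survival BCL-W, was at 31.6 ± 0.900 CPM in ARD1 and 22.7 ± 1.18 CPM in control libraries (0.48, SE 0.0866). BCL2L12 (0.57) and BCL2L13 (0.48) also rose. The BCL2L2 count is uncertain, since 19.4% of its exon bases are shared with the read-through gene BCL2L2-PABPN1. So is the BCL2L12 count, since exons of IRF3 lie opposite 33.1% of its exon bases and it has 1 annotated pseudogene.

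The pore-forming genes other than BAK1 were lower. BAX was at 84.0 ± 3.49 CPM in ARD1 libraries and 111 ± 8.15 CPM in control libraries (log2 fold change -0.40, SE 0.0757), and BOK at 27.6 ± 1.47 CPM in ARD1 and 49.0 ± 6.67 CPM in control libraries (-0.83, SE 0.100). BAX did not pass with library totals alone (-0.13) or with GC and length trends removed (-0.07). BBC3, the gene of the BH3-only protein PUMA, fell by 0.27 with TMM, was at -0.01 with library totals alone and was higher at 0.31 with GC and length trends removed, so its direction depends on the setting. It also did not pass without ARD1 replicate 2 (-0.23, adjusted p = 0.0828). BCL2L14 (-0.56), BCL2L15 (-0.63), BNIP1 (0.17), BNIP2 (0.11), BNIP3 (0.03) and BNIP3L (-0.05) did not pass, though BCL2L15 passed as lower in 6 alternatives, such as without control replicate 1 (-0.81) and without ARD1 replicate 2 (-0.90). BNIP3L passed as lower with GC and length trends removed (-0.33) and without control replicate 1 (-0.14). With library totals alone BNIP1 (0.44), BNIP2 (0.37) and BNIP3 (0.29) passed as higher, where the median of all genes was 0.30. BNIP3 has 39 annotated pseudogenes, which leaves its count uncertain. BCL2A1, with 6, 3 and 3 counts in ARD1 libraries and 0 in each control library, and BCL2L10 were too low to be tested.

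Downstream of the mitochondrion, genes of the apoptosome and its caspases passed in 7 of 13 cases, 4 higher and 3 lower, with a median of 0.02. This share of 53.85% lies below the 64.6% of all tested genes. Cytochrome c (CYCS), which triggers apoptosome assembly once released, was at 217 ± 3.08 CPM in ARD1 libraries and 137 ± 10.03 CPM in control libraries (log2 fold change 0.66, SE 0.0717). The initiator CASP9 rose as well (0.74, SE 0.126). Of 5 inhibitor of apoptosis genes 2 passed, BIRC5 (survivin, -0.47) and BIRC3 (cIAP2, -0.46), both lower, where 64.6% of all genes passed. With upper-quartile scaling 4 of the 5 passed, and with GC and length trends removed 5, where 65.45% and 68.91% of all genes passed. BIRC3 did not pass with library totals alone (-0.20).

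In the death receptor list, whose signals reach mitochondria through BID, 9 of 13 tested genes passed, 5 higher and 4 lower, with a median of -0.01. This share of 69.23% lies near the 64.6% of all tested genes. TNFRSF1A, the main TNF receptor, was at 312 ± 11.2 CPM in ARD1 libraries and 1034 ± 102 CPM in control libraries (log2 fold change -1.73, SE 0.0795), and TNFSF10, the gene of the ligand TRAIL, at 6.04 ± 0.999 CPM in ARD1 and 37.9 ± 3.65 CPM in control libraries (-2.65, SE 0.126). FAS (1.37, SE 0.258) and the kinase gene RIPK1 (0.49, SE 0.0793) rose. Among partners of the family at the outer membrane, 4 of 10 passed, 2 higher and 2 lower, with a median of -0.11. Their share of 40% is below that of all genes. VDAC1, a channel through which metabolites pass, was at 145 ± 2.27 CPM in ARD1 and 347 ± 16.4 CPM in control libraries (-1.25, SE 0.0674), FIS1, a fission factor gene, fell (-0.82), the fusion gene MFN1 rose (0.62), and the fission gene DNM1L (0.24) passed with an adjusted p of 0.0360. DNM1L did not pass with GC and length trends removed (0.10), nor without any 1 of the ARD1 libraries or control replicate 2 (adjusted p 0.0547 to 0.0875). Without control replicate 1, 7 genes of this list passed, where 67.28% of all genes did.

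Genes for proteins known to act on MCL1, BIM or BAD passed in 10 of 17 cases, 7 higher and 3 lower, with a median of 0.19. This share of 58.82% lies near the 64.6% of all tested genes. AKT1 and AKT2, whose kinases phosphorylate BAD, fell by 0.86 and 0.93 on the log2 scale, and YWHAZ, a 14-3-3 gene whose protein binds phosphorylated BAD, rose to 1790.0 ± 22.3 CPM in ARD1 libraries, against 1229 ± 19.1 CPM in control libraries. DYNLL2, the dynein light chain that binds BMF, rose (0.62). The ubiquitin ligase genes BTRC (0.61), MARCHF5 (0.33) and FBXW7 (0.29), known in MCL1 turnover, were higher and the deubiquitinase gene USP13 lower (-0.36). MARCHF5 (0.02) and FBXW7 (0.05) did not pass with GC and length trends removed, nor USP13 with library totals alone (-0.09). FBXW7 also missed the threshold without ARD1 replicate 1 or 2 (adjusted p = 0.0760 and 0.0615). Transcript values do not give the level or the phosphorylation of any of these proteins.

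**Figure D4:**
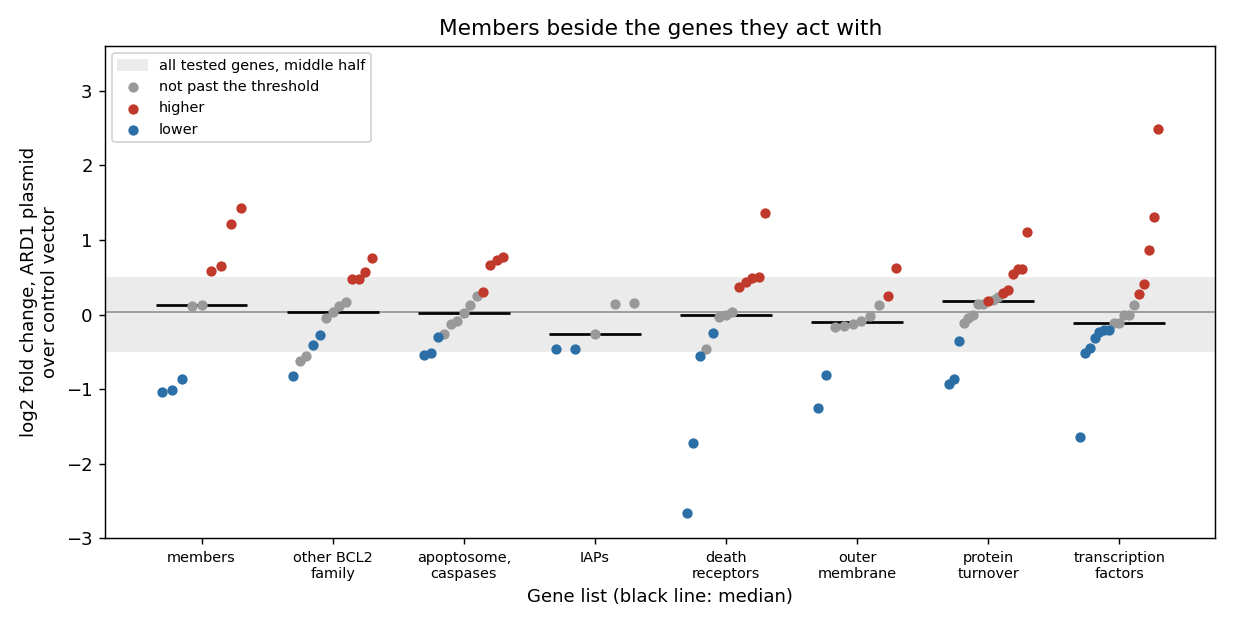
Log2 fold change, ARD1 plasmid over control vector, of each tested gene in the member list and 7 lists of genes that act with the family; red genes were higher and blue genes lower at an adjusted p under 0.05, grey genes did not pass. Black lines are list medians, between -0.26 and 0.19, and the grey band runs from the lower to the upper quartile of all tested genes.

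For each called member, the gene of most like pattern was sought among 9620 genes with a mean of at least 10 CPM, as the smallest root mean square difference of centred log2 CPM over the 6 libraries. These were ARHGAP32 for MCL1 (0.0288), DYRK1B for BCL2L1 (0.0255), UBE2A for BCL2L11 (0.0158), STARD10 for BAD (0.0133), GTF2I for BID (0.00681), ASAP2 for BCL2 (0.0521) and PTGES for BIK (0.281). For BCL2 the pseudocount of 0.5 CPM exceeds the level in control libraries and shrinks its difference: ASAP2 had a log2 fold change of 0.56, against 1.42 for BCL2.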

How the data were processed

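RNA-seq libraries were made from PLC/PRF/5 cells, 3 given the ARD1 plasmid and 3 the control vector. The deposited values are raw whole-number counts per Ensembl gene, 1 column per library; per the submitters' processing notes cutadapt 4.6, STAR 2.7.11b and the GRCh38 build were used. The kit was directional, per the labels; which counter, strand option and gene annotation followed is not given in the sources used here. Symbols matched 25052 of 25071 identifiers, and GENCODE 29 gave lengths and GC content for 23118.

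Counts were filtered with filterByExpr (15816 genes kept), scaled by TMM and tested by the quasi-likelihood method of edgeR 4.0.16 under R 4.3.3, with no covariates, with Benjamini-Hochberg adjustment over all tested genes and a threshold of 0.05. Standard errors came from the F statistic. RPKM is TMM-normalised CPM per kilobase of the longest of the best-ranked APPRIS principal transcripts. The script was tested on simulated counts of 15816 genes. It recovered 80.6% of 1.5-fold, 97% of 2-fold and 100% of 4-fold changes, and 7.04% of its 199 calls were false. Changes were planted only in genes with mean counts above those of BCL2 and BIK, so these rates do not cover BCL2 or BIK. Far fewer genes changed there than were called in these data, so the scaling under so wide a shift was not tested.

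Alternatives were RLE and upper-quartile scaling, library totals alone, sizes without NAA10, DESeq2 1.42.0, limma-voom (limma 3.58.1), 2 other filters, the replicate number as a block, GC and length offsets, and each library left out. Text names all members, all tested other family genes, the up to 4 (protein regulators and transcription factors, up to 8) called genes of smallest p in each further list, and 1 gene of like pattern per called member; a few genes that this rule names are not reported here. FOXO1, genes opposite a member and further cell type markers are named outside this rule. Members and lists were chosen with earlier results of these data known. The BH3 protein motif was searched on translated GENCODE coding sequences. Whether libraries came from separate cultures is not stated, so p-values measure the spread between libraries, which may be technical.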

Additional observations from a re-analysis of the deposited data

How the results depend on the processing

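Across 16 alternative fits, all chosen with earlier results of these data known, the log2 fold changes of MCL1 (0.53 to 0.91), BCL2L1 (-1.08 to -0.74), BCL2L11 (0.54 to 0.85), BAD (-1.14 to -0.52) and BID (-0.95 to -0.60) kept their sign and passed. The number of members past the threshold was 6 to 9, and that of all genes 9271 to 11092.

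Leaving out each library gave 1.15 to 1.74 for BCL2, 0.71 to 1.77 for BIK, 0.057 to 0.19 for BMF and 0.027 to 0.21 for BAK1. With library totals alone BMF came to 0.40 and BAK1 to 0.38, and with GC and length offsets to 0.22 and 0.40, each then past the threshold. The cause was not tested. GC and length offsets turned BBC3 to 0.31, BNIP2 to -0.077 and BNIP3 to -0.065, and library totals turned BNIP3L to 0.21. Leaving out each library gave -0.016 to 0.14 for BNIP2, negative without control replicate 1, and -0.050 to 0.059 for BNIP3, negative without control replicate 1 or ARD1 replicate 2.

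Of inhibitor of apoptosis genes 4 passed with upper-quartile scaling and 5 with GC and length offsets, where the main count was 2. Of all genes 65.45% and 68.91% passed in these fits, against 64.64% in the main fit. Of outer membrane partners 7 passed with those offsets, and leaving out each library gave 4 to 7, where the main count was 4. Of immune markers 1 was left with the filter of 1 CPM. BCL2 did not pass that filter and has no value under it.

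With the union of exons as length, pro-survival members held 74.8% in ARD1 and 63.4% in control libraries, BH3-only members 17.3% and 28.5%, and BAK1 7.87% and 8.17%. Without MCL1 the shares were 16.3% and 23.9%, 67.0% and 64.8%, and 16.7% and 11.3%, in the same order.

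Same-numbered libraries deviated together with correlations of 0.02, -0.07 and 0.07, and the labels give the numbers no shared origin. With the replicate block 7 members passed and 10293 genes in all, and no member's call changed. At this depth BCL2 and BIK, with 3 to 67 counts a library, are the members whose values are least precise.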
